A study of Mus musculus with 3 samples.

Results

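The clustered protocadherins are adhesion proteins of the cadherin superfamily that are encoded in 3 neighbouring gene clusters, alpha, beta and gamma, on mouse chromosome 18. They were taken from the gene-level count table as the protein-coding genes whose GENCODE vM21 symbol begins with Pcdha, or with Pcdhb, Pcdhga, Pcdhgb or Pcdhgc followed by a number. The rule found 57 of the 52636 genes in the table, of which 21896 were protein-coding. There were 12 alternate alpha members, 22 beta members, 12 gamma A members, 6 gamma B members and 5 C-type members (Pcdhac1, Pcdhac2, Pcdhgc3, Pcdhgc4 and Pcdhgc5).

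RNA was taken from live tdTomato-positive cells isolated by FACS after papain dissociation of whole hippocampi from male mice aged 28 to 32 days. The mice were heterozygous for Camk2a-Cre, in which the Camk2a promoter drives Cre mainly in forebrain excitatory neurons, and for Ai14, a reporter that makes tdTomato after Cre recombination, on a C57BL/6J background. Poly(A) RNA was sequenced in 3 biological replicates of this single group, each pooled from 2 to 4 mice. The series therefore holds no contrast between conditions, and the values below are levels and their spread over the 3 replicates.

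In the alpha and gamma clusters each member begins with its own large variable exon, read from its own promoter, which is spliced to constant exons used by all members of that cluster. The variable exon encodes the cadherin repeats that bind the same isoform on another cell, the membrane span and part of the cytoplasmic tail, and the constant exons encode the common end of the tail. Beta members are single-exon genes with no constant part. Single neurons are known to choose a few alternate members each through CTCF and cohesin looping and DNA methylation of the promoters, and the combination gives a cell surface identity used in self-avoidance and synapse formation, whereas C-type promoters follow other rules.

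The sequenced libraries held 48159841, 25686630 and 15833075 assigned counts in replicates 1, 2 and 3. The members together took 22991, 11831 and 7397 of these counts, which is 0.0477%, 0.0461% and 0.0467%. The sorted cells came from whole hippocampus, and marker lists of several cell types were measured in the same RNA. A gene was called detected when its CPM, the count scaled to a common library total, reached 1 in every replicate. Levels are in RPKM, which is CPM per kilobase of exon that no other gene covers. All 8 CA1 pyramidal markers were detected, with a median of 42.5 ± 2.40 RPKM (SD, n = 3). All 6 dentate granule markers also passed, with a median of 15.5 ± 1.02 RPKM, as did all 8 oligodendrocyte markers with 10.3 ± 1.91 RPKM. The other lists were lower, with medians of 2.72 ± 0.815 RPKM for astrocyte markers (6 of 7 passed), 1.41 ± 0.276 for microglia (4 of 4), 0.532 ± 0.539 for endothelial cells (2 of 3) and 0.258 ± 0.157 for interneurons (2 of 5). Which of these cells the protocadherin RNA came from was not tested, and in bulk samples fewer cells that express a member cannot be told apart from less RNA of it per cell.

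Because constant exons belong to many members at once, exon overlap was measured first, from the exon positions in the table (GRCm38, plus strand for the members). The alpha cluster spans positions 36930184 to 37187661 of chromosome 18. Its 14 members have 3 blocks of exon in common, 2860 bases between 37156155 and 37187657, and a median of 46.4% of a member's exon bases belonged to that member alone. The gamma cluster spans 37661793 to 37841873, and its 21 members have 3 blocks of 2116 bases in common, between 37825021 and 37841870, with a median of 54.8% of exon bases unshared. The beta cluster lies between them, from 37264938 to 37524479, and has no constant exon. Of its 22 members, 19 had exon bases that no other gene covered at all, while Pcdhb21 and Pcdhb22 overlapped each other by 455 bases.

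**Figure D1:**
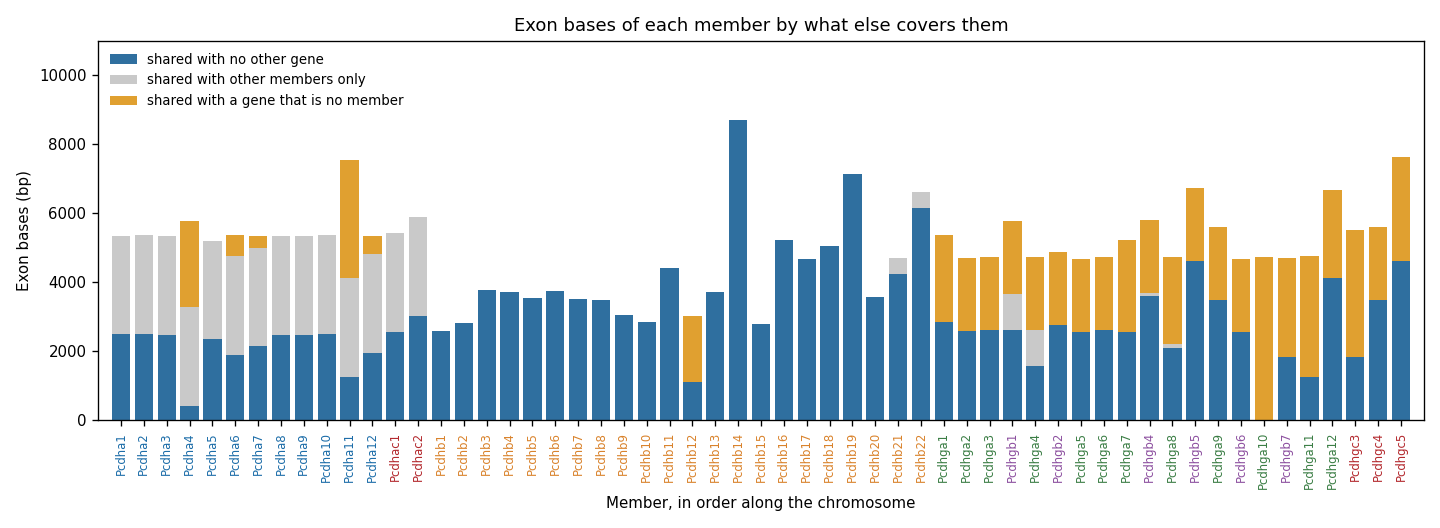
Exon bases of each of the 57 members, in base pairs on the y axis, for members in chromosomal order on the x axis (names coloured by subfamily). Each bar is split into bases that no other gene covers, bases covered by other members only, and bases covered by a gene outside the rule, to which the gamma constant exons belong because Pcdhgb8 also has them. Most beta bars are of the first kind throughout, while Pcdhga10 has no such base and Pcdha4 has 404.

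Genes on the opposite strand covered exon bases of 13 of the 57 members. The long noncoding gene Gm26672 covered 2613 bases of Pcdhga10, which together with the constant exons left Pcdhga10 with 0 unshared bases. The antisense gene Gm37446 covered 1927 bases of Pcdhb12, leaving 1107 of 3034. Pcdha4 kept 404 of 5768 bases, since the read-through gene Gm42416 overlaps 2410 bases of its exons, and Pcdha11 kept 1268 of 7535.

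Genes without an exon base of their own had almost no counts in this table. Of 1134 genes anywhere in the genome with no unshared exon base on either strand, 1120 (98.8%) had a count of 0 in all 3 replicates and 0 reached a CPM of 1 in each. Of the 251 genes among them that had at least 200 unshared bases when only their own strand was considered, 250 (99.6%) were also at 0. Most of these genes were not protein-coding. Among protein-coding genes alone, 129 of 141 (91.5%) with no unshared base were at 0, and 27 of 28 (96.4%) of those with same-strand bases. By comparison, 19.3% of 21581 protein-coding genes with at least 200 unshared bases were at 0. Levels are therefore given as RPKM of unshared exon, with TMM-scaled library sizes and only the exon bases that no other gene covers on either strand. All members except Pcdhga10 had at least 200 such bases, so 56 have a level. For an alpha or gamma member the level is that of exon outside the constant exons, since constant exon reads are not attributable. This is mainly the variable exon, but it need not be that alone. The annotated exon of Pcdhgc5 runs unbroken from 37819513 to the first constant exon at 37825021. Its unshared bases may therefore reach beyond its variable exon. Reads in the constant exons could have added to a member at most the lowest count of any member of its cluster in that library, if they were added evenly. Those were 20 counts (Pcdha11), 6 and 9 counts (both Pcdha4) in replicates 1, 2 and 3 for the alpha cluster and 10, 3 and 0 for the gamma cluster (Pcdhga10).

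By the limit of a CPM of 1 in every replicate, 52 of the 57 members were detected, against 57% of all protein-coding genes. All 6 gamma B and all 5 C-type members passed, with 11 of 12 gamma A, 21 of 22 beta and 9 of 12 alpha members. The 5 that did not pass were Pcdha1, Pcdha4, Pcdha11, Pcdhb1 and Pcdhga10. CPM takes no account of length. Among the 5, Pcdhga10 had 0 unshared bases, and no gene of that kind reached the limit, so its failure to pass says nothing of its expression. Pcdha4 had 404 unshared bases and Pcdha11 had 1268, while Pcdhga11 passed with 1256. Whether length kept Pcdha4 and Pcdha11 below the limit was not tested.

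The levels were low and even for most members, and high for a single one. Of the 56 members with a level, 4 exceeded 5 RPKM, 44 lay between 1 and 5 RPKM and 8 were below 1 RPKM. Ranked among the 21569 nuclear protein-coding genes with at least 200 unshared bases, detected or not, the median member stood at percentile 53.0. Of the 56, 39 lay above percentile 50. Among all protein-coding genes with at least 200 unshared bases, 19.3% had no counts in any replicate and 57.8% reached a CPM of 1 in each. The percentiles are therefore not ranks among detected genes. Pcdhgc5 stood at percentile 89.3 and the next member, Pcdhga11, at 70.2. Except for Pcdhgc5, the members above 5 RPKM depended on the length used. With same-strand bases Pcdhga11 was at 3.06 and Pcdhga12 at 4.54 RPKM, and with the merged exon length Pcdhac2 was at 2.86 RPKM.

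**Figure D2:**
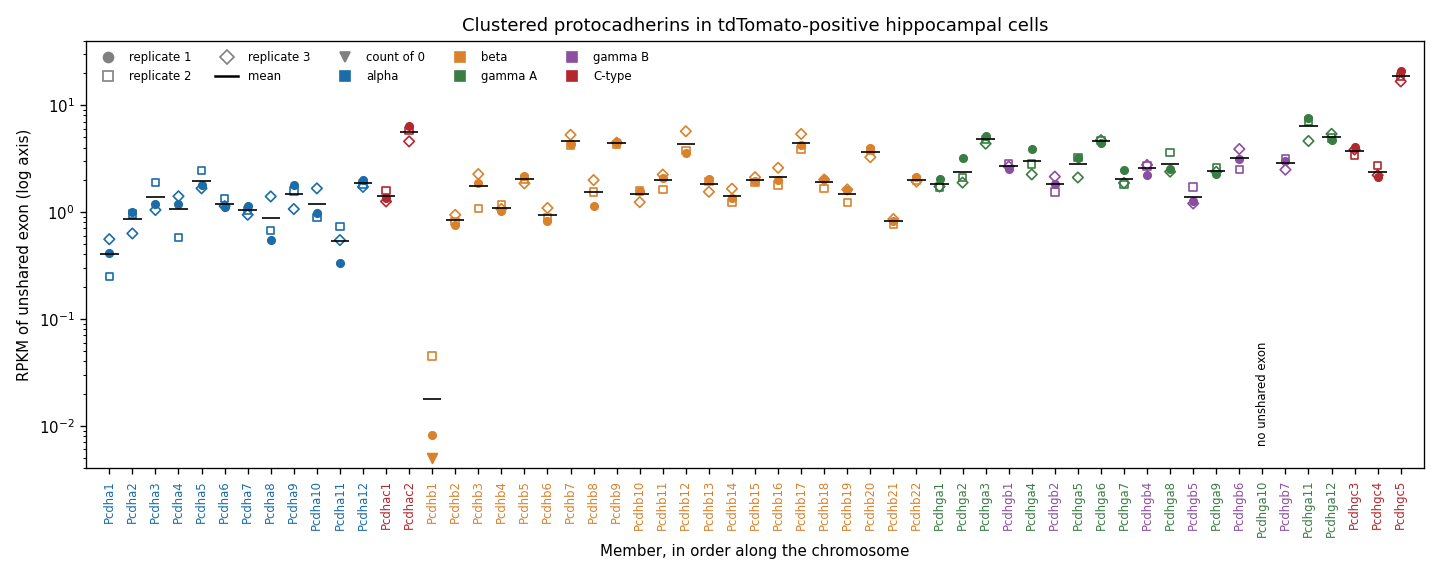
RPKM of unshared exon on a log axis for each member in chromosomal order on the x axis, with 1 symbol per replicate, a black bar at the mean and colours for the subfamilies. Pcdhgc5 stands above all others at 16.6 to 20.9 RPKM, the alpha members lie between 0.406 and 1.96 RPKM on average, and Pcdhb1 had 1, 3 and 0 counts. Pcdhga10 has no unshared exon and no value.

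The C-type members are the promoters at the downstream ends of the alpha and gamma clusters, and their levels had a 13.3-fold range from Pcdhgc5 to Pcdhac1. Pcdhgc5, the last member of the gamma cluster, had 4583, 2194 and 1218 counts on 4606 unshared bases in replicates 1, 2 and 3, which gave 20.9, 18.4 and 16.6 RPKM (mean 18.6 ± 2.15, SD, n = 3). As given above, its 4606 unshared bases may reach beyond the variable exon. Pcdhgc5 alone held 14.0%, 12.9% and 11.7% of the summed level of all members. Pcdhac2, the last member of the alpha cluster, had 6.32, 5.80 and 4.56 RPKM (mean 5.56 ± 0.904). Its level exceeded that of every alternate alpha member in each replicate. The highest of these by mean was Pcdha5 with 1.77, 2.44 and 1.66 RPKM. In replicates 1 and 3 the highest was Pcdha12 with 2.00 and 1.71 RPKM.

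Pcdhgc3 had 4.02, 3.36 and 3.83 RPKM (mean 3.74 ± 0.343). Pcdhgc4, known from mouse genetics as the gamma isoform needed for neuronal survival, had 2.11, 2.70 and 2.20 RPKM (mean 2.34 ± 0.318). Pcdhac1 was lowest with 1.35, 1.59 and 1.25 RPKM (mean 1.40 ± 0.172). The order Pcdhgc5, Pcdhac2, Pcdhgc3, Pcdhgc4 and Pcdhac1 had no overlap of replicate values at any of its 4 steps. The antisense gene BC037039 covers 1559 bases of Pcdhgc3, and with these counted as its own Pcdhgc3 was at 2.01 RPKM, below Pcdhgc4, so that the order of these 2 turned and 3 of the 4 steps had no overlap. With the merged exon length Pcdhgc3 (1.24 RPKM) was likewise below Pcdhgc4 (1.45 RPKM).

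Within a library the scaling drops out, so ratios between members can be read directly. Pcdhgc5 over Pcdhgc4 was 9.88, 6.82 and 7.54 in the 3 replicates (mean 8.08 ± 1.60). Pcdhgc5 over Pcdhgc3 was 5.19, 5.49 and 4.34 (mean 5.01 ± 0.598), and rose to 9.29 ± 1.11 with same-strand bases and to 9.13 ± 1.09 with the merged length. Pcdhgc5 over Pcdhac2 was 3.30, 3.18 and 3.64 (mean 3.37 ± 0.239). The neighbouring Pcdhac2 and Pcdhac1 differed by 4.67, 3.65 and 3.65 times (mean 3.99 ± 0.590). Each of these ratios was above 3 in every replicate. No replicate-level test is given, because with 3 replicates the smallest two-sided p an exact sign-flip test allows is 0.25.

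The alpha subfamily was the lowest. Its 12 alternate members summed to 13.5, 14.2 and 13.7 RPKM (mean 13.8 ± 0.354), and their median was 1.07 ± 0.0667 RPKM, with none of the 12 above the median of the whole family. Pcdha5 was highest with 198, 148 and 62 counts or 1.96 ± 0.422 RPKM. Pcdha12, the alternate member next to the C-type promoters, had 2.00, 1.83 and 1.71 RPKM (mean 1.85 ± 0.143). Pcdha9 had 1.79, 1.58 and 1.06 RPKM (mean 1.48 ± 0.375). With same-strand bases Pcdha12 was at 1.45 RPKM, below Pcdha9. Pcdha1, the most upstream member, was lowest with 49, 16 and 22 counts, or 0.413, 0.249 and 0.555 RPKM (mean 0.406 ± 0.153). Which alpha member was lowest depended on the length, since Pcdha11 was at 0.148 RPKM with same-strand bases, and with the merged length Pcdha4 (0.0740 RPKM) and Pcdha11 (0.0902 RPKM) were below Pcdha1 (0.189 RPKM).

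The highest alpha member was 4.82-fold above the lowest, or 13.3-fold with same-strand bases and 11.9-fold with the merged length. With unshared bases on either strand, replicate values overlapped at all 11 steps of their order. Pcdha8 varied most, with 64, 43 and 55 counts or 0.542, 0.672 and 1.39 RPKM, so that its level in replicate 3, the shallowest library, was above both others. Pcdha4 had 23, 6 and 9 counts on 404 bases, and its level of 1.06 ± 0.430 RPKM rests on these few reads. Pcdha11 had 20, 24 and 11 counts, or 0.536 ± 0.201 RPKM on its 1268 unshared bases, against the 0.148 RPKM given above for its 4606 same-strand bases.

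The beta subfamily had the largest summed level, 45.7, 42.9 and 50.9 RPKM (mean 46.5 ± 4.05), spread over 22 members with a median of 1.85 ± 0.183 RPKM. Pcdhb7 had 4.31, 4.16 and 5.26 RPKM (mean 4.57 ± 0.598). Pcdhb17 had 4.18, 3.83 and 5.35 RPKM (mean 4.45 ± 0.798), and Pcdhb9 had 4.46, 4.27 and 4.44 RPKM (mean 4.39 ± 0.106). These 3 overlapped with each other in their replicate values. Pcdhb12 had 3.55, 3.74 and 5.68 RPKM on its 1107 unshared bases (mean 4.32 ± 1.18), which fell to 1.58 RPKM when the bases under the antisense gene were counted as its own.

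After Pcdhb20 (3.63 ± 0.348 RPKM), the fifth in the order, there was a step with no overlap down to Pcdhb16 (2.12 ± 0.415 RPKM). The 16 members from there to Pcdhb21 ranged from 2.12 to 0.816 RPKM, with 1 further such step, from Pcdhb14 to Pcdhb4. Pcdhb1, the most upstream beta member, stood apart with 1, 3 and 0 counts on 2588 unshared bases. No replicate exceeded 3 counts, the limit that a count of 0 allows, so Pcdhb1 was not detectable at this depth. Leaving it out, the highest beta member was 5.61-fold above the lowest.

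The gamma A members summed to 41.3, 39.2 and 33.6 RPKM (mean 38.0 ± 4.01) over the 11 that could be measured, with a median of 2.92 ± 0.479 RPKM. Pcdhga11 was highest with 7.59, 7.06 and 4.60 RPKM (mean 6.42 ± 1.59), but this value depends on its 1256 unshared bases and was 3.06 RPKM when bases under antisense genes were included, below Pcdhga3, Pcdhga6 and Pcdhga12. Pcdhga12 had 4.74, 4.91 and 5.36 RPKM on 4123 bases (mean 5.005 ± 0.322). Pcdhga3 had 5.15, 4.78 and 4.35 RPKM (mean 4.76 ± 0.401). Pcdhga1, the most upstream gamma member, was lowest with 2.02, 1.70 and 1.73 RPKM (mean 1.82 ± 0.176), so that the range was 3.53-fold. Pcdhga10, with no unshared base, had 10, 3 and 0 counts, and its expression cannot be judged from these counts.

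The 6 gamma B members summed to 14.0, 14.4 and 15.1 RPKM (mean 14.5 ± 0.577) and were the most even subfamily, with a 2.28-fold range. Pcdhgb6 had 3.12, 2.505 and 3.87 RPKM (mean 3.16 ± 0.684). Pcdhgb7 had 2.98, 3.14 and 2.48 RPKM (mean 2.87 ± 0.345), and Pcdhgb1 had 2.52, 2.82 and 2.66 RPKM (mean 2.67 ± 0.148). Pcdhgb5 was lowest with 1.26, 1.71 and 1.20 RPKM (mean 1.39 ± 0.280). The top 4 members of this subfamily overlapped in their replicate values, and the step without overlap was that from Pcdhgb4 (2.56 ± 0.280 RPKM) to Pcdhgb2 (1.84 ± 0.298 RPKM). Antisense genes cover 771 bases of Pcdhgb7. With same-strand bases Pcdhgb7 fell to 2.02 RPKM and lay between Pcdhgb4 and Pcdhgb2.

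As shares of the summed level of the family, beta members held 32.2% ± 3.21, gamma A 26.3% ± 2.27, the 5 C-type members 21.9% ± 1.65, gamma B 10.04% ± 0.650 and alpha 9.55% ± 0.471 (SD, n = 3). The order of the 3 largest was the same in every replicate. Gamma B and alpha, the smallest shares, were at 9.35%, 10.1% and 10.6% against 9.02%, 9.93% and 9.69%, and the ranges of both overlapped. The shares rest on the length used, because counts of alpha and gamma members come from exon outside the constant exons. Variable exons lie upstream of the constant ones, whereas the beta bases reach the 3′ end, and coverage along the transcripts was not analysed here. With the merged exon length that includes the constant exons, the beta share was 47.0%.

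**Figure D3:**
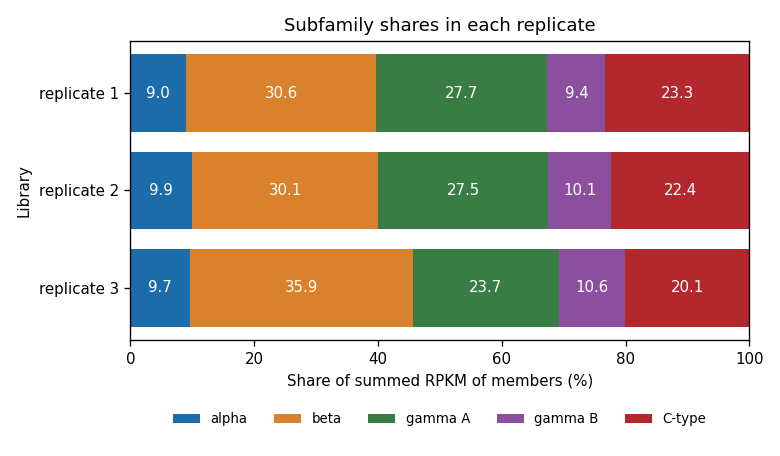
Share of the summed RPKM of all measured members, in percent on the x axis, held by each subfamily in each of the 3 replicates (1 bar each, with the share printed in each segment). Beta is the largest segment in every bar and is wider in replicate 3, where gamma A and C-type are narrower.

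Evenness within a subfamily was expressed as an effective number, the exponential of the Shannon entropy of the levels, which equals the number of members when all are alike. It was 10.8 ± 0.384 for the 12 alpha members, 18.2 ± 0.274 for the 22 beta members, 10.1 ± 0.0664 for the 11 gamma A members and 5.76 ± 0.0612 for the 6 gamma B members. For the 5 C-type members it was 3.32 ± 0.106. Over all 56 measured members it was 40.8 ± 1.28. These numbers describe the pool of sorted cells, and a choice of few members by each cell would not be visible in them.

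Position along the cluster went with level only loosely. From the upstream to the downstream end, Spearman's rho between order and mean level was 0.280 for 12 alpha members (0.119 to 0.350 in single replicates), 0.294 for 22 beta members (0.252 to 0.322), 0.491 for 11 gamma A members (0.282 to 0.636) and 0.429 for 6 gamma B members (0.0857 to 0.429). With same-strand bases rho was 0.273, 0.311, 0.236 and -0.0286 for the same 4 subfamilies, so that the gamma B direction turned. These are correlations across members that share libraries, and are given as a description. The most upstream member, Pcdha1, Pcdhb1 and Pcdhga1, was the lowest measured member of its subfamily in the alpha, beta and gamma A groups, which for Pcdha1 held with unshared bases on either strand but not with the other lengths, while in gamma B the lowest was Pcdhgb5 and not the most upstream, Pcdhgb1.

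The order of the 56 levels was similar between replicates, with Spearman's rho of 0.952 for replicates 1 and 2, 0.907 for 1 and 3 and 0.867 for 2 and 3. Over 17395 nuclear protein-coding genes, whose levels span a wider range, the same pairs gave 0.991, 0.987 and 0.985. The biological coefficient of variation, the spread between replicates beyond counting error, had a median of 0.113 over the 52 detected members. It was 0.0871 over 12119 genes in the members' range of CPM. Without replicate 3 the medians were 0.0446 for the members and 0.0510 for those genes, so that the members were no longer above them. Of the 52, 17 (32.7%) exceeded the trend fitted for their abundance, against 31.1% of the genes in that range. The median of that trend was 0.181 for the members and 0.128 for those genes, so the 2 groups were not matched in abundance. Several members, such as Pcdha6 and Pcdhb9, were at 0.00988, the lowest value over all genes fitted. The members with the largest values were Pcdha8 (0.473), Pcdhb3 (0.357) and Pcdha10 (0.312). Pcdhb3 had 1.87, 1.07 and 2.26 RPKM, with replicate 2 lowest, and Pcdha10 had 0.983, 0.883 and 1.66 RPKM, with replicate 3 highest.

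Replicate 3, the shallowest library, held the highest of the 3 values for 13 of 22 beta members, above the share over all genes. It did so for 2 of 11 gamma A, 0 of 5 C-type, 4 of 12 alpha and 3 of 6 gamma B members. Over 12470 detected nuclear protein-coding genes the share was 29.9%, and over 338 other genes with a single exon block 28.1%. The lowest value was in replicate 3 for 6 of 22 beta, 6 of 11 gamma A and 3 of 5 C-type members. For alpha it was 6 of 12 and for gamma B 2 of 6, against 46.4% of the 12470 genes. Outside beta these counts rest on few members and are not read as a trait of a subfamily. Summed endothelial markers were 1.297, 2.37 and 9.75 RPKM in replicates 1 to 3 and summed CA1 markers 327, 338 and 291 RPKM. Summed astrocyte markers were 45.9, 28.1 and 53.5 RPKM, oligodendrocyte markers 145, 156 and 132, and dentate granule markers 187, 165 and 163. Microglia markers summed to 4.67, 6.18 and 6.62 RPKM and interneuron markers to 14.8, 11.6 and 14.7. Their part in these differences was not tested.

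Set beside the non-clustered protocadherins the median member was low, while it lay closer to the median of the classical cadherins. The 12 non-clustered protocadherins, single genes outside these clusters, had a median of 8.03 ± 0.372 RPKM, and 10 of them passed a CPM of 1 in each replicate. Pcdh1 had 63.9 ± 6.18 RPKM, Pcdh20 31.1 ± 1.48 and Pcdh8, an activity-regulated protocadherin, 22.0 ± 2.48, while Pcdh12, an endothelial protocadherin, had 7, 3 and 0 counts. The member median was below that of this list by 2.01, 2.04 and 2.09 on the log2 scale (mean difference -2.05 ± 0.0380; exact sign-flip permutation test over 3 replicates, two-sided p = 0.25, the smallest it allows). Pcdhgc5 was below Pcdh1, Pcdh20 and Pcdh8 on average, and was below Pcdh8, which had 24.7, 21.6 and 19.8 RPKM, in 3 of 3 replicates.

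The 16 classical cadherins, calcium-dependent adhesion proteins that bind beta-catenin, had a median of 2.30 ± 0.279 RPKM, with 13 detected. Cdh9 had 17.2 ± 1.63 RPKM, Cdh2 (N-cadherin) 11.2 ± 0.318 and Cdh8 9.74 ± 0.552, while Cdh3 had 2, 0 and 0 counts. The member median was lower by 0.10, 0.19 and 0.43 on the log2 scale, a mean difference of -0.24 ± 0.168. The exact sign-flip permutation test over 3 replicates gave p = 0.25, again the smallest it allows. Any difference of the same sign in all 3 replicates gives this p, so it does not set the 2 lists apart.

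**Figure D4:**
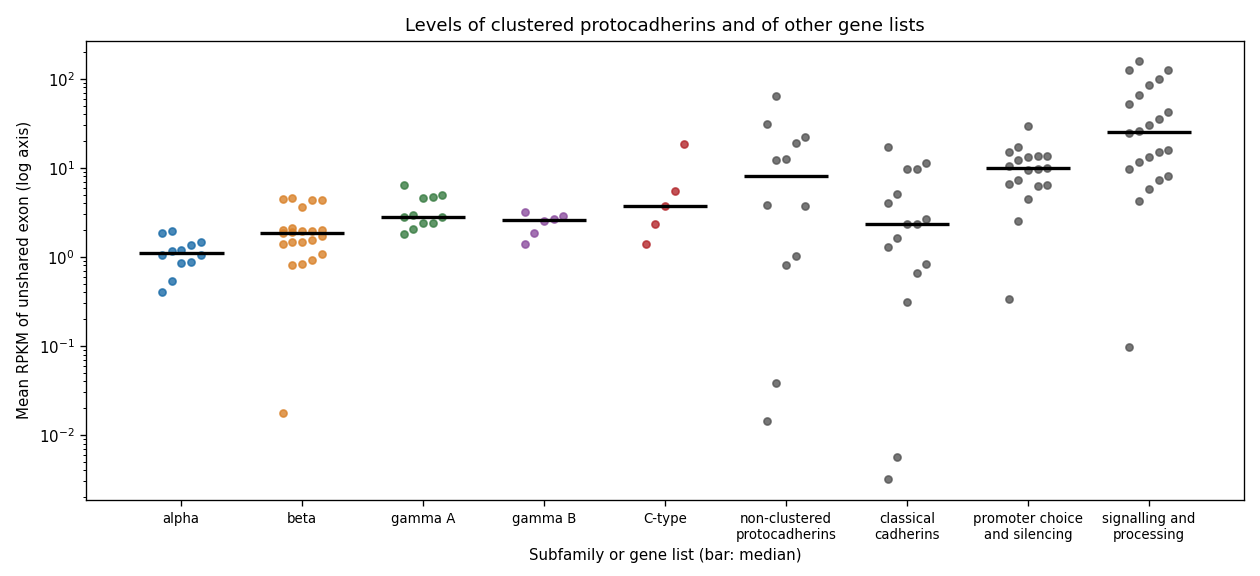
Mean RPKM of unshared exon over 3 replicates, on a log axis, for each member by subfamily and for each gene of the other lists (1 point per gene, horizontal bar at the median). The subfamilies lie mostly between 0.4 and 7 RPKM, Pcdhgc5 stands at 18.6 RPKM, and the promoter and signalling lists have medians of 9.90 and 25.2 RPKM.

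Listed genes known to bind or act at the clustered promoters, or to load and release cohesin, were all detected. All 18 genes of the promoter choice and silencing list passed a CPM of 1 in each replicate, with a median of 9.90 ± 0.562 RPKM. The corepressor Trim28 had 29.7 ± 2.98 RPKM, the cohesin subunit Rad21 17.3 ± 2.15 and Ctcf, the zinc-finger protein that binds the promoters and their enhancers, 15.1 ± 1.16. Dnmt3b, a de novo DNA methyltransferase, was lowest with 0.247, 0.303 and 0.468 RPKM. Of the 22 genes of protein partners, 21 passed, with a median of 25.2 ± 0.376 RPKM. The highest were Wasf1 (157 ± 4.68 RPKM) and Nckap1 (126 ± 11.9), subunits of the WAVE actin-regulating complex that binds protocadherin tails, and the tyrosine kinase Ptk2b (124 ± 11.0). The receptor tyrosine kinase Ret was lowest with 0.0960 ± 0.0544 RPKM.

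Exons of 15 genes that are no member overlapped those of a member, 9 of them on the opposite strand. The 3 protein-coding ones, Gm42416, Gm37013 and Gm37388, each overlap 1 alpha member (Pcdha4, Pcdha6 and Pcdha7 in that order) and all 21 gamma members, and so join an alpha exon with gamma constant exons. None of the 3 has an unshared exon base, and each had 0 counts in every replicate, which as shown for genes of this kind says nothing of whether such transcripts are made.

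Sequence identical to that of another gene could also have cost reads. Of all windows of 100 bases in a member's unshared exons, 0% to 9.80% also occurred without a mismatch in a transcript of another gene, with 27 of 56 members having any. Near-identical sequence was not measured. The highest shares were 9.80% in Pcdhgb2 and 9.72% in Pcdha6. No C-type member had such a window, and beta members had at most 2.30% (Pcdhb6). How reads that map to several places were counted is not given in the sources used here.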

How the data were processed

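The authors deposited raw counts per gene from STAR and featureCounts, named without versions in the submitters' processing notes (mm10, GRCm38), and the length of merged exons in bp. Strand, fragment and overlap settings are not given in the sources used here. Reads were paired-end and 150 bp long. Symbols came from GENCODE vM21 (52489 of 52636 genes named). vM21 gives the symbol Pcdha11 to 2 identifiers, and ENSMUSG00000007440 is called Pcdha10 here after its position in RefSeq.

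Counts were scaled by TMM (edgeR 4.0.16 in R 4.3.3) and divided by exon bases shared with no other gene on either strand, with a minimum of 200. Means and SDs cover 3 replicates, so the spread includes animals and handling. The coefficient of variation came from estimateDisp with no prior weight, checked on simulated data. List differences used an exact sign-flip permutation test. Python 3.11.15 with numpy 2.4.6, pandas 2.3.3 and scipy 1.17.1 did the rest. A count of 3, the limit for a count of 0, corresponds to 0.0630, 0.116 and 0.188 CPM and covers counting error only.

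The members and lists were chosen with earlier results of these data known. Named in full were the 3 highest and the lowest member of each subfamily, all C-type members, the 3 highest and the lowest gene of each other list, and protein-coding genes overlapping a member. Others were named for their exon overlap, their step in the order or their spread after their values were seen. The alternatives were the merged exon length, unshared bases on the same strand, median-of-ratios size factors (DESeq2 1.42.0), TPM, another detection limit, and leaving out each replicate. No sequence is shown.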

Additional observations from a re-analysis of the deposited data

Results flagged for a closer look

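Genes outside the family rule were not part of the levels above. Of the 15 whose exons overlap a member, 8 had more counts in each replicate than the 3 that a count of 0 allows. Pcdhgb8, a gamma B gene that GENCODE vM21 classes as a polymorphic pseudogene, had 337, 186 and 120 counts and a level of 2.91 ± 0.0962 RPKM, within the range of the 6 protein-coding gamma B members. Gm26672, which covers Pcdhga10 and parts of 3 other members on the opposite strand, had 246, 157 and 59 counts or 2.88 RPKM. The others were Gm37165 at 1.57 RPKM, BC037039 at 0.933, Gm10545 at 0.781, Gm10544 at 0.730, Gm37446 at 0.694 and Gm18150 at 0.502 RPKM. Whether strand was used in counting is not given in the sources used here. Of the 251 genes above with unshared bases on their own strand only, 250 were at 0. Reads on bases shared across strands were thus rarely counted for such genes. The counts cannot separate reads of an overlapping gene and of the member on the shared bases.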

How the results depend on the processing

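Of 160 comparisons of a summary value with its value under an alternative, 131 stayed within 1 SD (for counts and for the coefficient of variation, within 1.5 times), 29 moved further and 0 changed sign. Many of these outcomes were fixed beforehand. Leaving out 1 of 3 replicates cannot move a mean over replicates by more than 1 SD. Shares, effective numbers, log2 differences and rank correlations do not depend on library scaling. Sums, shares and counts cannot change sign. The tally is therefore no measure of robustness. Detected members were 53 at 0.5 CPM, 54 at 10 raw counts and 53 without replicate 2. With the merged exon length, the summed levels were 5.42 (alpha), 18.5 (gamma A), 7.62 (gamma B) and 17.5 (C-type) RPKM, and the shares 5.86% (alpha), 47.0% (beta), 19.99% (gamma A), 8.24% (gamma B) and 18.9% (C-type). The effective numbers were then 9.99 (alpha) and 3.00 (C-type), the median of alternate members 1.22 RPKM, and the member median lay at -2.68 against non-clustered protocadherins and -0.88 against classical cadherins (log2). With unshared bases of the same strand only, the sums were 12.6 (alpha), 33.2 (gamma A) and 13.6 (gamma B) RPKM, the effective numbers 10.3 (gamma A) and 3.10 (C-type), the median of alternate members 1.76 RPKM and the difference from non-clustered protocadherins -2.11. As TPM, which is another scale, the sums were 78.6 (alpha), 266 (beta), 216 (gamma A), 82.6 (gamma B) and 180.1 (C-type), and the median of alternate members 10.8. The merged length lowered 37 of 56 members, 34 of them by over 1.5-fold, and the ranks of the 56 correlated with the main ranks at a Spearman's rho of 0.7997. Size factors moved none of the 56 by over 1 SD. Leaving out 1 replicate gave a mean rank correlation of 0.867 to 0.952 and a median coefficient of variation of 0.0446 (without replicate 3) to 0.121, and 1 of 168 member values moved by over 1.5-fold (Pcdhb1). No paired analysis was possible because the series holds 1 group. Depth limits members with few counts, and the unshared length may understate the countable length where a read pair reaches from a small unshared part into a shared one.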
